A study of Danio rerio with 3 samples.

Results

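Transcript levels of 10 genes of leptin and JAK-STAT3 signalling are described in whole zebrafish larvae. The genes are the leptins lepa and lepb, the receptor genes lepr and il6st, the kinase gene jak1, the transcription factor genes stat3 and cebpb, and the inhibitor genes socs1a, socs3a and socs3b. They were chosen by name, with their measured values in these same libraries already known, so what follows is a description of levels and holds no test. All 10 of the 24555 genes in the joined tables were found by symbol, and 9 of them had a value in all 3 libraries. The transgenic larvae carried the construct pair written as Tg (huc:teton:gal4; tre:serpini1:mkate2). The huC promoter is active in neurons and drives a Tet-On activator, and the responder makes serpini1, the gene of the protease inhibitor neuroserpin, together with the red fluorescent protein mKate2. The knockout larvae were titled serpini1-/- and had the genotype label Tg (serpini1-/-), with no further word on the lesion. The control larvae were wild type. Every group was of the AB background, was kept in 40 µg/mL doxycycline from day 3 and was collected at day 7 after fertilization. No group had the driver or mKate2 without serpini1, so these cannot be told apart from serpini1 itself. For each group 30 larvae were pooled into 1 library, so there was no replicate, and no comparison has a p-value of a condition.

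Leptin is a cytokine hormone that signals through a class I cytokine receptor, a relative of the gp130 chain that the interleukin-6 family shares. Ligand binding activates receptor-bound JAK kinases, which phosphorylate STAT3, and STAT3 enters the nucleus and switches on target genes, among them the SOCS inhibitors that shut the receptor off again. Mammalian leptin comes mainly from fat and reports energy stores, whereas zebrafish have a pair of leptin genes, and lepb in particular is known to be switched on in regenerating fins and hearts.

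The lepb transcript was far higher in the transgenic than in the other libraries. Over control lepa was higher by an amount that these files do not fix, while the transcripts of the leptin receptor and of gp130 were not higher. Over the knockout the gp130 transcript was higher by a small amount. The inhibitor socs3b was also higher in the transgenic library. The transcription factor cebpb was above control by just under 2-fold, socs3a was above control to a smaller degree, and socs1a was not. In the knockout library every one of the 8 members compared had a lower level than in control, by small amounts except for socs1a. Lepb was not among these 8, since its level was too low in both libraries, at 0.77 FPKM in the knockout and 0.38 FPKM in control. Levels are in FPKM, a unit that divides a gene's fragments by its transcript length and by the library's size, so they may be compared between genes. A gene was compared where at least 1 library of the pair had 1 FPKM, and it was called higher or lower where log2((FPKM + 1)/(FPKM + 1)) was at least 1 in size, a 2-fold difference.

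By that rule 3 of the 10 members were higher in the transgenic than in the control library, namely lepa, lepb and socs3b, and 0 were lower. Among all 19242 genes compared, 3.56% were higher and 1.26% lower. In the knockout, 0 of 8 members were higher and 1, socs1a, was lower than in control, beside 0.798% higher and 0.664% lower among 18663 genes. Set against the knockout, 3 of 9 members were higher in the transgenic library, namely lepb, socs3b and cebpb, and 0 were lower. The shares of 18775 genes in that comparison were 2.86% higher and 1.08% lower. Most genes under 0.58 FPKM in the knockout, lepa among those without a value, had no knockout value. Shares and ranks that involve the knockout therefore leave out most genes that were very low there. The median log2 ratio of the members was 0.53 for transgenic over control, -0.38 for knockout over control and 0.84 for transgenic over knockout. The medians of all genes were 0.03, -0.03 and 0.04 in the same order. Since the members were picked with these values in view, nothing is read from their shares.

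**Figure D1:**
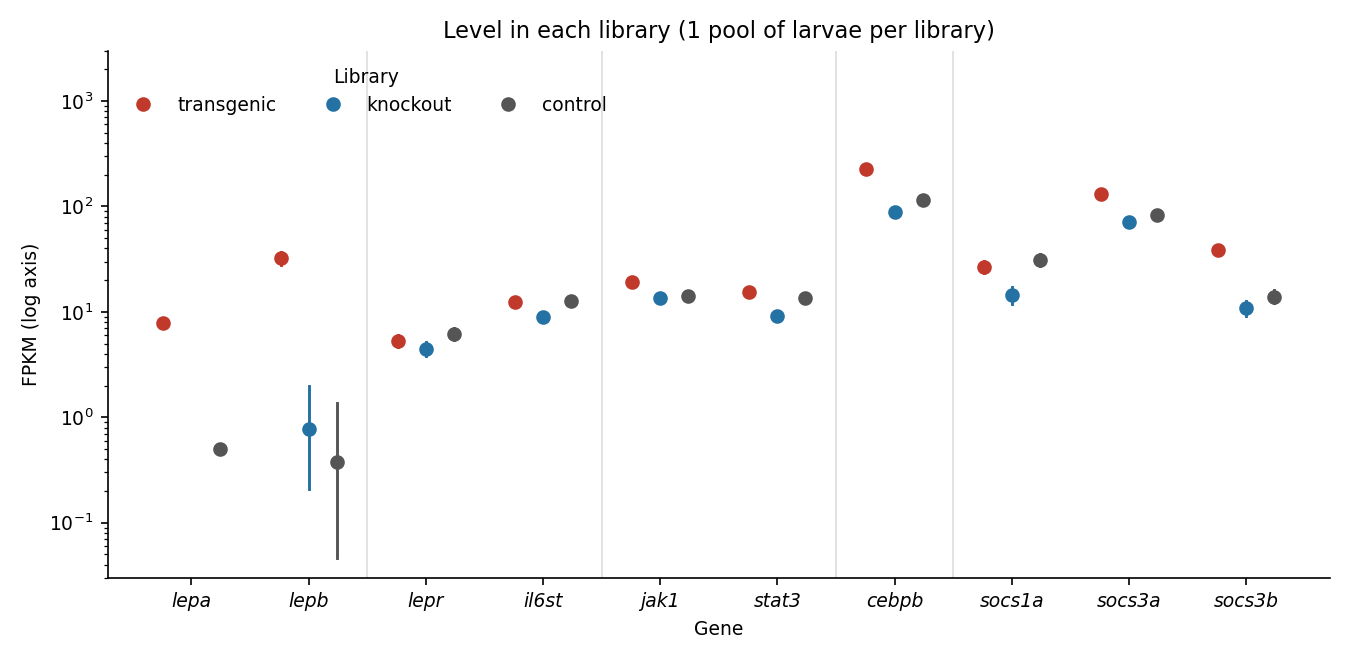
FPKM of each gene on a log axis in the transgenic, knockout and control library, 1 point per library, with bars for 95% counting intervals and none for lepa. Both leptins sit above 7 FPKM in the transgenic library and under 1 FPKM in the other libraries with a value, whereas lepr and il6st lie within 1.4-fold between libraries and socs3b and cebpb are highest in the transgenic library.

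The targeted gene and the depth bear on every value. Serpini1 stood at 288 FPKM in the transgenic, 8.05 FPKM in the knockout and 20.04 FPKM in the control library, so its transcript was high in the first and still present in the knockout. The depth, inferred from the deposited p-values, was about 7980000 fragments in the transgenic, 7760000 in the knockout and 7740000 in the control library. From this depth, FPKM and transcript length the reads of each gene were estimated, and fold values are given with 95% Clopper-Pearson intervals on them. Such intervals hold counting error alone. They leave out how pools of larvae differ, and sequencing reads that carry no molecular identifier may be copies of the same molecule.

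The gene lepb had 32.2 FPKM in the transgenic, 0.77 FPKM in the knockout and 0.38 FPKM in the control library, from about 176, 4 and 2 reads. The counting interval of the transgenic level, 27.6 to 37.3 FPKM, lay far above those of the knockout (0.21 to 1.97) and the control (0.046 to 1.37), and the last 2 overlapped. The transcript thus stood near the limit of detection in knockout and control larvae and was among the better expressed genes in transgenic larvae, at rank 1820 by FPKM there and rank 20750 in control. Lepb was 84.6-fold higher in the transgenic than in the control library, with an interval of 23.3 to 711 that is wide because the control holds so few reads. It had the second highest log2 ratio of all 19242 genes in that comparison (rank 2, log2 4.59). Over the knockout it was 41.8-fold higher (16.4 to 159, log2 4.23) and had rank 7 of 18775. For knockout over control the lepb ratio was 2.03 with an interval of 0.286 to 22.1, and both levels were under 1 FPKM, so no call was made.

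The paralog lepa had 7.81 FPKM in the transgenic and 0.50 FPKM in the control library, and no knockout value was used, since the table that holds knockout values ends at 0.58 FPKM as used here. The FPKM ratio was 15.6 (log2 2.55 on the scale with 1 FPKM added), the rank 37 of 19242. A second reading of the same files gave a smaller ratio. The p-value for lepa in the authors' deposited table, 0.000861, comes from a Poisson comparison of reads, and exactly 1 pair of read numbers returned it, 32 in the transgenic and 10 in the control library. These reads give a ratio of 3.11 with an interval of 1.49 to 7.08 (log2 1.63), still above 1 but well under the FPKM ratio. To reach the deposited FPKM from them, lepa would need an effective length of 513 bases in the transgenic and 2583 bases in the control library, against a deposited length of 889 bases. For lepb 8 pairs of read numbers return the deposited p, so that route fixes no ratio for it. The direction of the lepa difference was the same by either route, while its size was not fixed by these files.

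The transcripts of both leptin genes summed to 39.96 FPKM in the transgenic and 0.88 FPKM in the control library. Lepb made up 80.5% of that sum in the transgenic and 43.2% in the control library. With the lepa level taken instead from its 32 and 10 reads and the deposited length, 5.08 FPKM in the transgenic and 1.64 FPKM in the control library, the lepb share was 86.3% in the transgenic and 18.8% in the control library. By either route lepb was the more abundant in transgenic larvae, and in control larvae the order of the paralogs was not fixed.

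The leptin receptor gene lepr had 5.31 FPKM in the transgenic, 4.46 FPKM in the knockout and 6.16 FPKM in the control library. By deposited FPKM it was the lowest of the 10 genes in transgenic larvae, while lepa by its reads was lower still, at 5.08 FPKM. Its level in the transgenic library was 0.862 of control (0.713 to 1.04), and that in the knockout was 0.724 of control (0.592 to 0.883). The transgenic and control intervals overlapped, and those of the knockout and the transgenic did too. Receptor transcript in whole larvae was therefore not higher than in control where the ligand transcript was. Over the knockout the transgenic level of lepr was 1.19 times as high, with an interval across 1 (0.970 to 1.46).

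The gene il6st encodes gp130, the signalling chain shared by the receptors of interleukin-6, interleukin-11 and related cytokines. It had 12.5 FPKM in the transgenic, 9.04 FPKM in the knockout and 12.6 FPKM in the control library. The transgenic and control levels were nearly equal, at a ratio of 0.988 (0.892 to 1.097), and the knockout was the lowest of the 3. Knockout over control was 0.715 (0.638 to 0.801), and transgenic over knockout was 1.38 (1.23 to 1.55).

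The kinase gene jak1, whose product is bound to many cytokine receptors and starts the phosphorylation chain, had 19.1 FPKM in the transgenic, 13.4 FPKM in the knockout and 14.0 FPKM in the control library. Here the transgenic library stood alone. Its level was 1.36 times that of control (1.196 to 1.55) and 1.42 times that of the knockout (1.25 to 1.62), while the ratio of knockout to control, 0.957, had an interval across 1 (0.833 to 1.104).

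The gene stat3, the transcription factor on which leptin and gp130 signals converge, had 15.6 FPKM in the transgenic, 9.14 FPKM in the knockout and 13.4 FPKM in the control library. The knockout was the lowest, at 0.681 of control (0.584 to 0.791). The transgenic library was at 1.16 times control (1.02 to 1.32) and 1.70 times the knockout (1.47 to 1.97). The difference between the transgenic and the control library was small, and the authors' deposited table gave it a p of 0.360. For stat3 and il6st the deposited p and the deposited FPKM matched less closely than for most genes. The gap between the p and that from reads estimated from FPKM was 1.33 and 1.402 SD units, a size that 2.96% and 2.62% of 18520 genes reach. For lepa the gap was 3.46 SD units (0.362% of genes), and for the other 7 members at most 0.228. The stat3 and il6st ratios are therefore less certain than their counting intervals show.

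**Figure D2:**
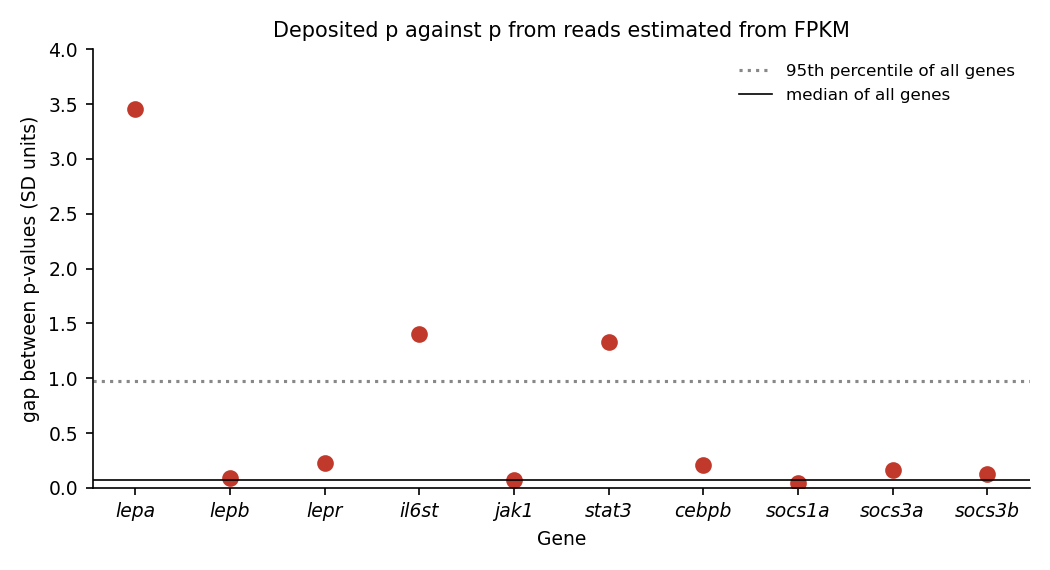
Gap in SD units between the deposited p-value of transgenic over control and the p-value from reads estimated from FPKM, 1 point per gene. Lines mark the median (0.068) and the 95th percentile (0.970) of all genes, and lepa (3.46), il6st and stat3 lie above the upper line.

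The gene cebpb encodes a leucine zipper transcription factor of the acute-phase response, first known in human cells as a nuclear factor for interleukin-6 expression. It was the most abundant of the 10 genes, with 227 FPKM in the transgenic, 89.4 FPKM in the knockout and 115 FPKM in the control library. The 3 counting intervals, 219 to 236, 84.1 to 94.97 and 109 to 122 FPKM, did not overlap. The transgenic level was 1.97 times control (1.85 to 2.104), a log2 ratio of 0.97 that falls just short of the 2-fold rule, and 2.54 times the knockout (2.37 to 2.73, log2 1.34). Knockout over control was 0.776 (0.715 to 0.841). In the transgenic library cebpb held rank 329 of all genes by level.

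The inhibitor genes of the SOCS family, whose proteins bind activated receptors or JAKs and stop the signal, did not all behave alike. Socs3b had 38.7 FPKM in the transgenic, 10.8 FPKM in the knockout and 14.0 FPKM in the control library. The transgenic level stood furthest apart. The intervals of the knockout (9.20 to 12.6) and the control (12.2 to 16.0) overlapped slightly, though the interval of their ratio lay below 1. Socs3b was 2.77-fold higher in the transgenic than in the control library (2.37 to 3.25, log2 1.41, rank 251 of 19242). It was 3.59-fold higher than in the knockout (3.01 to 4.28, log2 1.75, rank 110 of 18775), and knockout over control was 0.772 (0.628 to 0.953).

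Its paralog socs3a, the more abundant of the pair, had 130.2 FPKM in the transgenic, 71.2 FPKM in the knockout and 82.9 FPKM in the control library. The order of the libraries was that of socs3b, with smaller steps. The transgenic level was 1.57 times control (1.46 to 1.69) and 1.83 times the knockout (1.70 to 1.98), and the knockout was 0.858 of control (0.788 to 0.933). Together the socs3 pair summed to 169 FPKM in the transgenic, 81.9 FPKM in the knockout and 96.9 FPKM in the control library. Socs3b gave 22.9% of that sum in the transgenic, 13.2% in the knockout and 14.4% in the control library. Socs3a was thus 3.36 times as abundant as socs3b in the transgenic library, against 6.60 times in the knockout and 5.94 times in the control library.

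Socs1a, whose mammalian counterpart is best known as a brake on interferon signalling, had 26.7 FPKM in the transgenic, 14.4 FPKM in the knockout and 31.1 FPKM in the control library. In this gene the knockout was the library that stood apart, and the intervals of the transgenic (23.3 to 30.4) and the control (27.4 to 35.1) overlapped. Socs1a was 2.16-fold lower in the knockout than in the control library (1.72 to 2.69, log2 -1.06), at rank 105 from the lowest of 18663 genes. With 5 FPKM added in place of 1 the log2 ratio was -0.89, short of the rule. The transgenic level was 0.859 of control (0.717 to 1.03) and 1.85 times the knockout (1.47 to 2.32).

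**Figure D3:**
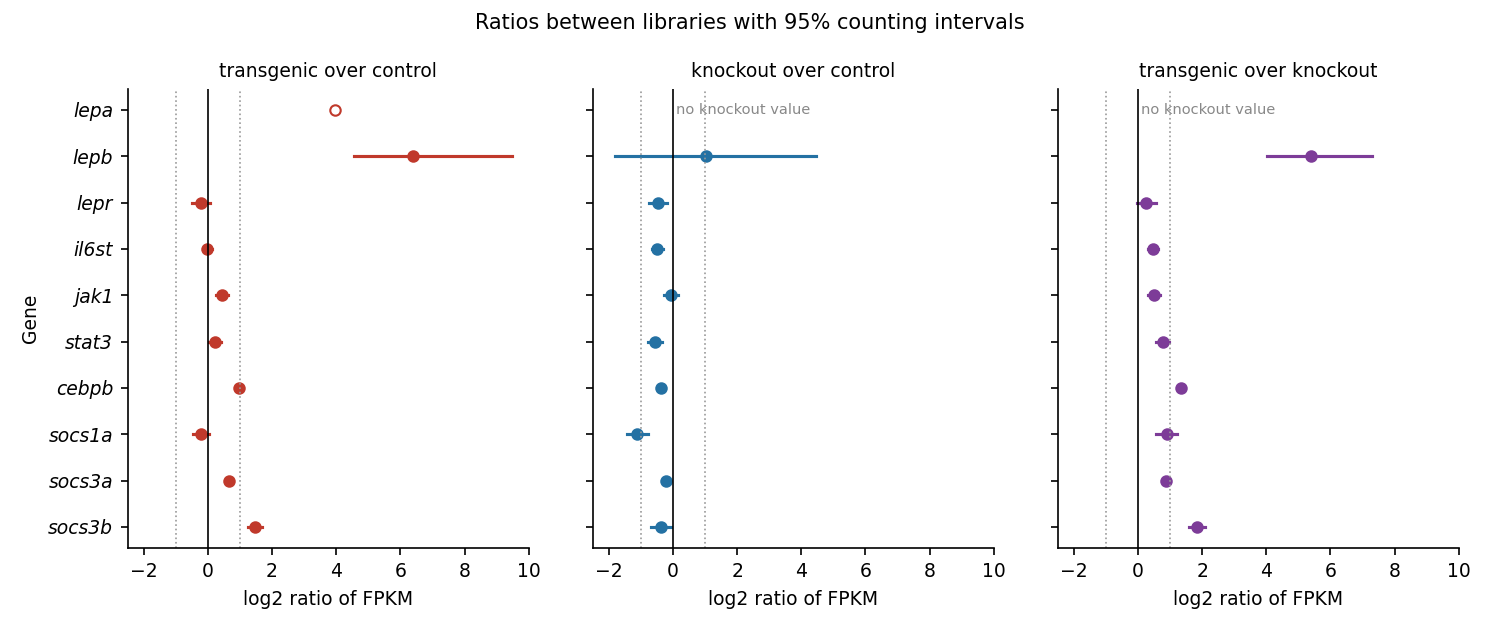
Log2 ratio of FPKM with 95% counting intervals for each gene in the 3 comparisons. The lepa circle is open because no interval is given, and dotted lines mark a 2-fold difference. Lepb and socs3b lie to the right of the dotted line over both control and knockout, and socs1a lies at the left one in the knockout over control.

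Across the members, 7 of 10 log2 ratios of transgenic over control were above 0 and 3 were below, those of lepr, il6st and socs1a, and among all genes 52.5% were above 0. The counting intervals of the same 7 fold values lay above 1, with lepa taken by either route, and 0 lay below 1. The stat3 interval (1.02 to 1.32) rests on FPKM that the deposited p did not match closely, so its place above 1 is uncertain. For knockout over control 8 of 8 ratios were below 0, among all genes 44.9% were above 0, and 7 of 8 intervals lay below 1, jak1 being the exception. Lepb, under 1 FPKM in both libraries and not among the 8, had a log2 ratio above 0 (0.36) with an interval across no difference. For transgenic over knockout 9 of 9 ratios were above 0, among all genes 54.1% were above 0, and 8 intervals lay above 1, lepr being the exception. The first 2 of these comparisons share the control library and the last is made of the other libraries, so they do not count as separate evidence. The share of all genes with intervals wholly above or below 1 was not computed. Nothing is therefore read from the counts of intervals. Side by side, socs3b had log2 ratios of 1.41 in the transgenic and -0.35 in the knockout over control. Cebpb had 0.97 and -0.36, socs3a 0.65 and -0.22, jak1 0.42 and -0.06, and stat3 0.20 and -0.51. Il6st had -0.02 and -0.44, lepr -0.18 and -0.39, and socs1a -0.21 and -1.06. Members with the largest ratios in the transgenic library were therefore not those with the lowest ratios in the knockout.

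**Figure D4:**
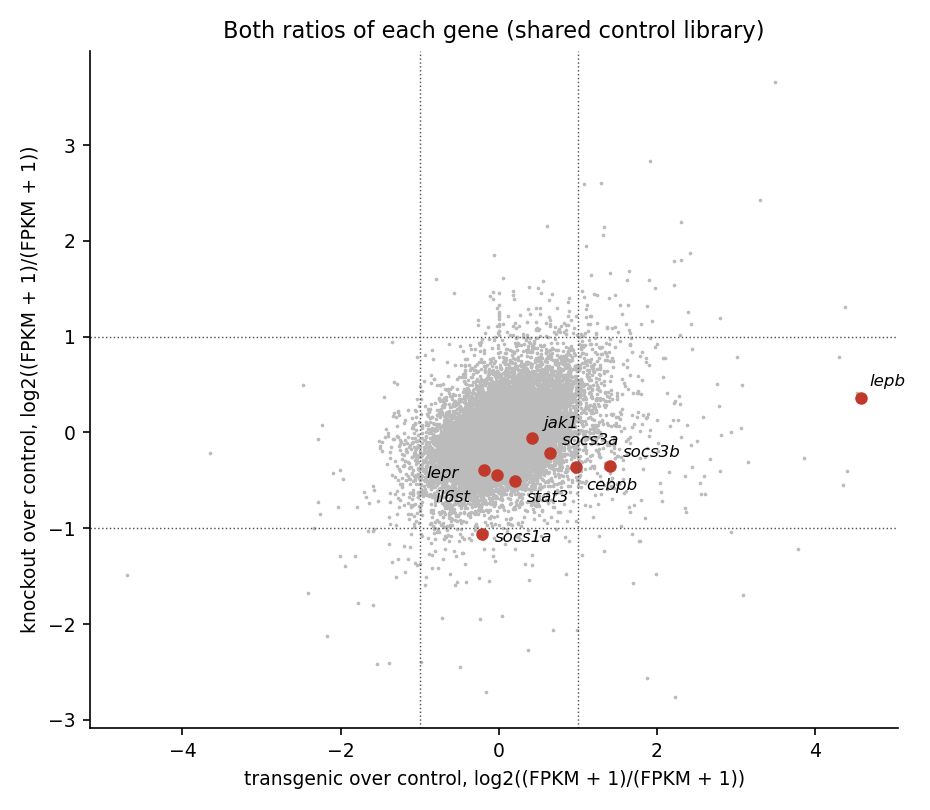
Each gene's log2 ratio of transgenic over control (horizontal) against that of knockout over control (vertical), both with 1 FPKM added and sharing 1 control library. Red points are the 9 members with a value in all 3 libraries, grey points all other such genes, and dotted lines mark 2-fold differences. Lepb lies far to the right, and socs1a at the lower dotted line.

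The pathway around the members was described by lists written by hand with earlier results of these data known. Among the genes of JAKs and STATs, 11 of 12 were above 0 in the transgenic over control, with a median of 0.17. By the rule 1 was higher, beside 3.56% of all genes. Of the 12 genes 1 was under 1 FPKM in control and entered only through its transgenic level. Without the members jak1 and stat3, 9 of 10 were above 0 (median 0.14). In the knockout over control 10 of 11 of these genes were below 0, with a median of -0.08, and 0 were past the rule. Stat2, a transcription factor of the interferon response, had 8.66 FPKM in the transgenic, 3.93 FPKM in the knockout and 6.15 FPKM in the control library. Stat4 had 6.40, 3.01 and 3.08 FPKM in the same order, whereas stat5a was lowest in the transgenic library, at 3.97, 4.54 and 6.02 FPKM.

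Among 22 genes of feedback inhibitors, 10 were above and 12 below 0 in the transgenic over control (median -0.03), so the levels of socs3a and socs3b were not those of the list. Of the 22 genes 1 was under 1 FPKM in control and entered only through its transgenic level. Socs3b was 1 of 2 genes higher by the rule, beside 3.56% of all genes. The other gene past the rule there was ptpn6, which encodes the phosphatase SHP-1 of blood cells, with 8.82 FPKM in the transgenic, 4.4 FPKM in the knockout and 2.19 FPKM in the control library. In the knockout over control 9 were above and 13 below 0 (median -0.15). Without the members 9 were above and 10 below 0 (median -0.05). Socs1a and socs2 were past the rule on the lower side, beside 0.664% of all genes. Socs2, an inhibitor of growth hormone signalling, had 11.9 FPKM in the transgenic, 10.9 FPKM in the knockout and 24.3 FPKM in the control library. Unlike socs1a, it was low in both modified groups, with a log2 ratio of -0.97 in the transgenic and -1.08 in the knockout over control. Cish, an inhibitor of STAT5 signalling, had 36.2 FPKM in the transgenic, 27.0 FPKM in the knockout and 44.8 FPKM in the control library and was not past the rule in either comparison with control.

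Among 16 genes of ligands and receptors of the gp130 family, 9 were above and 7 below 0 in the transgenic over control (median 0.11), and 4 were higher by the rule, beside 3.56% of all genes. Beside the leptins these were lifrb, a receptor gene for leukemia inhibitory factor, and il11a, a cytokine gene. All but lifrb, 3 genes, were under 1 FPKM in control and entered the comparison only through their transgenic level. Lifrb had 5.68 FPKM in the transgenic, 1.31 FPKM in the knockout and 1.29 FPKM in the control library, a 4.403-fold higher level in the transgenic than in the control library (3.04 to 6.55). Its paralog lifra had the opposite order, with 3.42 FPKM in the transgenic, 3.91 FPKM in the knockout and 6.13 FPKM in the control library. Il11a, deposited without that symbol and matched by its gene identifier, had 1.72 FPKM in the transgenic and 0.22 FPKM in the control library, from about 47 and 6 reads. In the knockout over control 8 of 13 genes of this list were below 0 (median -0.39) and 0 were past the rule. That median is the value of the member lepr itself. Without the members, 5 of 11 genes were above and 6 below 0 (median -0.08). Among 21 other cytokine receptor genes 13 were above 0 in the transgenic over control (median 0.28). Of these 21 genes 5 were under 1 FPKM in control and entered only through their transgenic level, so they could only be above 0. In the knockout over control 15 of 19 were below 0 (median -0.25), and 0 were past the rule in either comparison. For transgenic over knockout the medians of these lists were 0.23 for the 11 JAK and STAT genes, 0.16 for the 22 inhibitor genes, 0.31 for the 14 genes of the gp130 family and 0.35 for the 20 other receptor genes. Without the members the medians were 0.16, 0.09, 0.21 and 0.35 in the same order. In that comparison socs3b, lepb, lifrb and the interleukin-4 receptor gene il4r.1 were past the rule, all higher in the transgenic library. The share of all genes higher there was 2.86%. The wider Jak-STAT pathway in the authors' deposited annotation, a list added after the values were seen, was more evenly split. Of 162 genes 88 were above and 74 below 0 in the transgenic over control, with a median of 0.05. Of these 162 genes 18 were under 1 FPKM in control and entered only through their transgenic level. Of 148 genes 55 were above and 92 below 0 in the knockout over control, with a median of -0.07.

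Among 34 genes of transcription factors and targets linked to STAT3, 26 were above 0 in the transgenic over control (median 0.29), with 4 higher and 1 lower by the rule. Those higher were the leucine zipper factor genes fosl1a, junba, atf3 and batf3. Fosl1a had 24.95 FPKM in the transgenic, 3.40 FPKM in the knockout and 5.34 FPKM in the control library. Junba had 89.1, 23.5 and 37.7 FPKM and atf3 had 22.6, 5.56 and 10.1 FPKM in the same order. Batf3 had 1.08 FPKM in the transgenic library, from about 4 reads, and was listed at 0 in control. Of the 34 genes 2, batf3 among them, were under 1 FPKM in control and entered only through their transgenic level. Among all genes 3.56% were higher and 1.26% lower in this comparison. The lower one was nfil3-5, at 10.4 FPKM in the transgenic, 16.7 FPKM in the knockout and 22.1 FPKM in the control library. In the knockout over control 25 of 31 genes were below 0 (median -0.16), and junbb and klf4 were lower by the rule, beside 0.664% of all genes. In the transgenic over knockout 24 of 31 were above 0 (median 0.38). Fosl1a, junba, atf3, junbb and cebpb were higher by the rule there, beside 2.86% of all genes. Within the C/EBP family 3 of 6 genes, cebpb among them, were above 0 in the transgenic over control and 0 of 6 were past the rule. Cebpa, a factor of liver and myeloid cells, had 34.8 FPKM in the transgenic, 14.1 FPKM in the knockout and 21.2 FPKM in the control library, and with cebpb it was higher by the rule in the transgenic over knockout. Cebpd, at 419 FPKM in the transgenic, 357 FPKM in the knockout and 398 FPKM in the control library, was the most abundant and the most even.

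**Figure D5:**
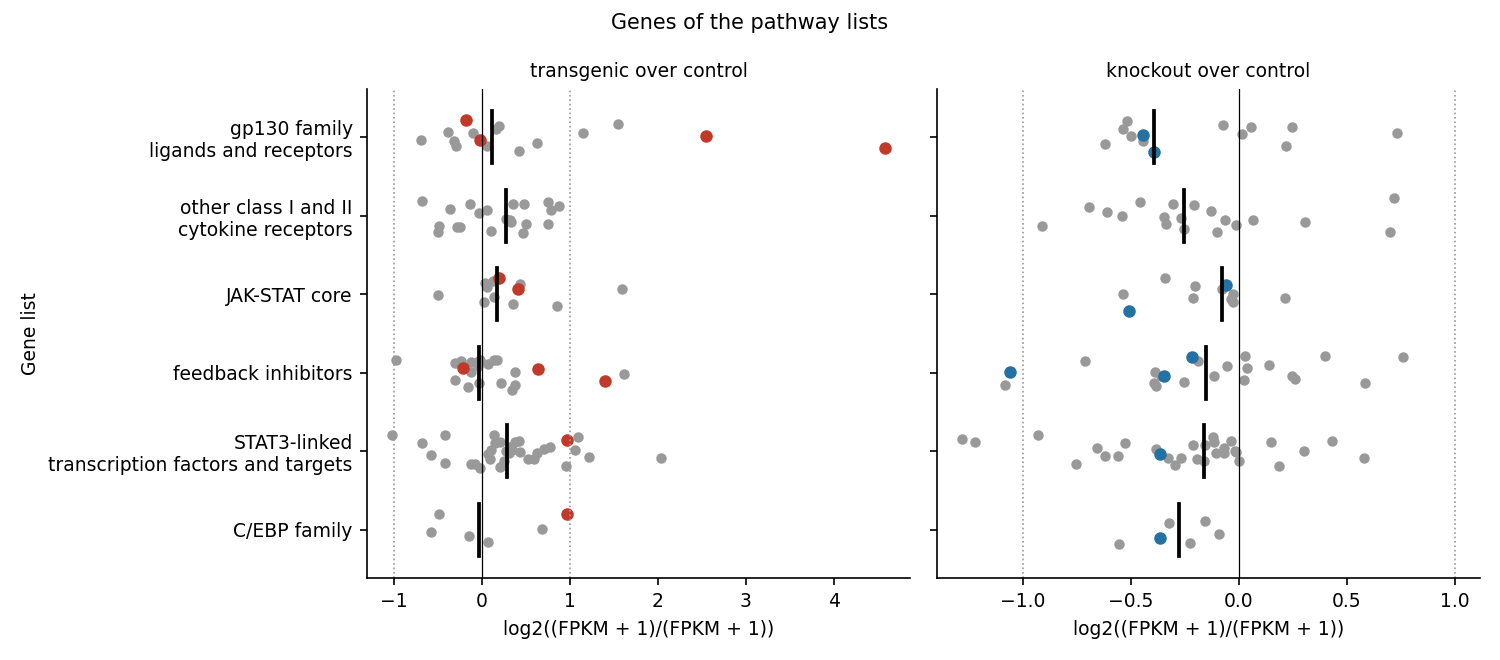
Log2 ratios with 1 FPKM added for the genes of 6 lists, transgenic over control at left and knockout over control at right. Coloured points are the 10 genes described here, grey points the other genes of each list, black ticks the list medians and dotted lines 2-fold differences. List medians, which include the members, lie between -0.03 and 0.29 at left and between -0.39 and -0.08 at right. The leptins and socs3b lie far to the right of their list medians at left.

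Genes most like 3 of the members were sought by the distance between their pairs of log2 ratios over control, among 18992 genes with values in all 3 libraries. The nearest to lepb was zgc:194125, at a distance of 0.081, with 41.2 FPKM in the transgenic, 1.44 FPKM in the knockout and 0.83 FPKM in the control library. LOC103910140 followed at 0.511, then the metalloproteinase genes mmp13a (0.788) and mmp9 (0.939) and the inhibitor gene timp2b (0.954). Mmp13a had 121 FPKM in the transgenic, 3.36 FPKM in the knockout and 4.78 FPKM in the control library, and only the first of the 5 lay within 0.5 of lepb. Socs3b had closer neighbours, tmem176l.4 (0.068), LOC100536659 (0.071), pgp (0.079), adam8a (0.102) and si:dkey-34l15.1 (0.127). Nearest to socs1a were a gene without a symbol (0.038) and hspb15 (0.052), hmox1a (0.059), gss (0.064) and ggact.1 (0.0995), all lower by the rule in the knockout over control. The heme oxygenase gene hmox1a, for example, had 7.12 FPKM in the transgenic, 3.43 FPKM in the knockout and 8.06 FPKM in the control library. With 3 libraries such a likeness is only a likeness of 2 ratios.

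In whole larvae, fewer cells of a type and less RNA per cell cannot be told apart. Like cebpb and the socs3 genes, macrophage markers and most neutrophil markers were above control in the transgenic and below it in the knockout library. The sum of the 12 neutrophil markers and the marker sums of the other cell types had other orders. The summed level of 18 macrophage markers was 897 FPKM in the transgenic, 398.9 FPKM in the knockout and 515 FPKM in the control library, the same order as that of cebpb and the socs3 genes. Abundant markers such as apoeb weigh most in that sum. Apoeb had log2 ratios of 0.69 in the transgenic and -0.35 in the knockout over control. The marker mpeg1.1 had 7.78 FPKM in the transgenic, 1.96 FPKM in the knockout and 3.97 FPKM in the control library. In the transgenic over control 19 of 19 measured macrophage markers were above 0 and 5 were higher by the rule (median 0.72). Among all genes 52.5% were above 0 and 3.56% higher by the rule. Of the 19 markers 2 were under 1 FPKM in control and entered only through their transgenic level. In the knockout over control 16 of 16 were below 0 and 1 was lower by the rule (median -0.58). Among all genes 44.9% were above 0 and 0.664% lower by the rule there. Of 12 neutrophil markers 10 were above 0 in the transgenic over control (median 0.74) and 11 were below 0 in the knockout over control (median -0.45). Their sum was 1115 FPKM in the transgenic, 1428 FPKM in the knockout and 1375 FPKM in the control library. Most of it was cpa5, whose log2 ratio of transgenic over control (-1.06) lay near those of the pancreatic protease genes cpb1 (-1.03) and cpa1 (-1.43). Which cells the cpa5 transcripts came from was not tested. By the rule cpa5 was the 1 neutrophil marker that was lower in this comparison, beside 1.26% of all genes. Without cpa5, left out after the values were seen, the other 11 markers summed to 509 FPKM in the transgenic, 81.9 FPKM in the knockout and 113 FPKM in the control library. Mmp9 gave 124 FPKM and mmp13a 121 FPKM of that transgenic sum. Both are also among the genes nearest to lepb above, so the sum is not separate from the pattern of lepb. Liver makes acute-phase transcripts, and 15 hepatocyte markers summed to 6802 FPKM in the transgenic, 5628 FPKM in the knockout and 4831 FPKM in the control library. The neuronal markers, 15 genes with a sum of 538 FPKM in the transgenic, 619 FPKM in the knockout and 624 FPKM in the control library, were lowest in the transgenic library. Sums of 14 muscle markers (58497, 60014 and 57192 FPKM in the same order) and 5 lymphocyte markers (35.0, 35.5 and 35.1 FPKM) were nearly level. Epidermis markers, 15 genes, summed to 10137 FPKM in the transgenic, 15428 FPKM in the knockout and 11736 FPKM in the control library. Intestine markers, 14 genes, summed to 2176, 2756 and 2610 FPKM, and 11 markers of notochord, cartilage and bone to 533, 524 and 345 FPKM, in the same order. Unlike their sum, 8 of the 15 epidermis markers were above 0 in the transgenic over control (median 0.25), with 3 higher and 0 lower by the rule. The shares of all genes were 3.56% higher and 1.26% lower. None of the macrophage, neutrophil, hepatocyte, neuron or muscle markers was at 0 in the transgenic or the control library, and 1 lymphocyte marker was at 0 in control. The part of any of these cell types in the levels of the 10 genes was not tested.

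Reads of some members could also come from a neighbour. In the RefSeq gene table for GRCz12tu, an assembly used here for names and neighbours only, lepa overlaps the microRNA gene mir129-3, cebpb overlaps the long noncoding RNA gene LOC137496363, and 8 of the 10 members overlap no other gene. The sources used here do not give whether counting used strand, so reads of overlapping genes cannot be told apart. Each of lepa with lepb and socs3a with socs3b is a paralog pair, and how reads matching both were counted is not given either.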

How the data were processed

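RNA of whole larvae was sequenced in 3 libraries, 1 each of transgenic, knockout and control, grouped by title. HISAT, StringTie, DESeq2 and the build GRCz11 are named without versions or roles in the submitters' processing notes. The authors deposited FPKM rounded to 2 decimals, per the file headers. Their comparison tables also hold, per the file headers, log2 ratios and p-values, which rest on 1 library a group. The p-values were used to infer reads and were set beside the FPKM of the members, and those of lepa and stat3 are quoted. The table of all libraries used here has 19699 complete genes and ends at 0.58 FPKM in the knockout. The comparison tables hold 24529 genes (transgenic) and 266 genes (knockout), joined by gene identifier to 24555. For 4816 genes no knockout value was used. The authors wrote an FPKM of 0 as 0.01, which was read as 0.

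The p-values of genes at 0 in control came out within 0.05 of whole reads under a Poisson comparison for 991 of 991 genes in the transgenic and 15 of 15 in the knockout table. The depth from 71 genes with at least 10 such reads, with length less 100 bases, had a coefficient of variation of 3.84%. The precision of each fold is given by 95% Clopper-Pearson intervals on estimated reads, and that of each level by 95% Poisson intervals on the same reads. The pseudocount was 1 FPKM and understates ratios of low genes, and a fold is a ratio of FPKM without it. Calls needed 1 FPKM in either library and a 2-fold difference. A gene under 1 FPKM in 1 library enters only when high in the other. The scripts were checked on simulated data. Python 3.11.15, numpy 2.4.6, pandas 2.3.3, scipy 1.17.1 and matplotlib 3.10.9 were used.

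The members, gene lists and markers were chosen with earlier results of these data known. Of 339 list symbols 303 matched the deposited symbols, 14 the symbols and 3 the synonyms of the RefSeq table, joined on gene identifier. From each list, genes past the rule could be named, up to 8 on each side, beside all 10 members, the 5 genes nearest in pattern to lepb, socs3b and socs1a, and serpini1. Other genes were named after their values were seen, namely stat2, stat4, stat5a, cish, lifra, cebpa, cebpd, mpeg1.1, apoeb, cpa5, cpb1, cpa1, sox9a, msx1b, pomca and agrp. Alternatives were another pseudocount, floor, fold threshold and a median scaling, and, added after the data were seen, the reads behind the p-value of lepa. Promoter motifs and protein identity of the paralogs were planned but not analysed here, and no sequence is given. A gene of the JAK and STAT list that was past the rule is not reported here by name.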

Additional observations from a re-analysis of the deposited data

How the results depend on the processing

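Pseudocounts of 0.1 and 5 FPKM, floors of 5 and 0 FPKM, a 1.5-fold threshold and a scaling to the median ratio were tried. With the 1.5-fold threshold 5 members instead of 3 were called in the transgenic over control and 6 instead of 3 in the transgenic over knockout. The shares of all genes at 1.5-fold were not computed, so nothing is read from these larger counts. With a pseudocount of 5 FPKM 0 members instead of 1 were called in the knockout over control, socs1a being the one lost. The other settings gave 3, 1 and 3 members. Of 85 alternative log2 ratios of the members 0 changed sign. Most of these only had another pseudocount, which cannot change a sign, so nothing is read from that 0. Of the 85 ratios 7 moved beyond counting error. These were lepa at 1.22, lepb at 2.79 over control and 2.69 over knockout, socs3b at 1.204 over control and 1.47 over knockout and stat3 at 0.54 over knockout, all with 5 FPKM added, and lepa at 1.63 by reads. With a floor of 5 FPKM the count of JAK and STAT genes past the rule in the transgenic over control was 0 instead of 1. No paired analysis was possible because each group has 1 library, and none could be left out. Depth limits the leptins most, since lepb rests on about 2 reads in control. Differences between pools of larvae, the driver line and mKate2 cannot be told apart from those of serpini1.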

Other observations

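The list of regeneration and wound genes, to which lepb belongs, was written with earlier results of these data known. Without lepb, 16 of 21 measured genes were above 0 in the transgenic over control (median log2 0.70). By the rule 10 of these 21 were higher, beside 3.56% of all genes. Counted with lepb, 3 of 22 genes were under 1 FPKM in control and entered only through their transgenic level. Il11a, higher by the rule, was among these 3, at 0.22 FPKM in control. Of 19 genes in the knockout over control 10 were above 0 and 0 past the rule (median 0.02). Timp2b, a gene of a metalloproteinase inhibitor, had 54.9 FPKM in the transgenic, 2.2 FPKM in the knockout and 2.84 FPKM in the control library. Mmp9, a gelatinase gene, had 124 FPKM in the transgenic, 3.21 FPKM in the knockout and 5.16 FPKM in the control library. The annexin gene anxa2a had 188 FPKM in the transgenic, 76.2 FPKM in the knockout and 71.9 FPKM in the control library. Hbegfa, a gene of an epidermal growth factor receptor ligand, had 25.7 FPKM in the transgenic, 10.1 FPKM in the knockout and 10.5 FPKM in the control library. Mmp13a, fosl1a and plek2 were also higher by the rule in the transgenic over control. In the transgenic over knockout 2 of 21 genes, lepb among them, were under 1 FPKM in the knockout and entered only through their transgenic level. Without lepb, 16 of 20 were above 0 there and 8 were higher by the rule (median 0.67), beside 2.86% of all genes. Genes of the list that were not past it included sox9a, with 16.0 FPKM in the transgenic, 20.2 FPKM in the knockout and 19.9 FPKM in the control library, and msx1b, with 4.46, 4.80 and 4.62 FPKM in the same order.

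Genes of appetite and energy balance, written down for their link to leptin in mammals, had no common direction. Of 19 such genes 10 were above and 9 below 0 in the transgenic over control (median 0.03), and of 20 in the knockout over control 10 were above and 10 below 0 (median -0.00), with 0 past the rule. Pomca, the precursor of melanocortins, had 8.25 FPKM in the transgenic, 7.50 FPKM in the knockout and 6.46 FPKM in the control library, and agrp, the gene of a melanocortin antagonist, had 4.75, 5.22 and 3.79 FPKM in the same order. The 2 genes past the rule in the transgenic over control were lower in the transgenic library and encode precursors of melanin-concentrating hormone. The share of all genes lower there was 1.26%. Pmchl had 2.38 FPKM in the transgenic, 4.67 FPKM in the knockout and 7.80 FPKM in the control library, and pmch was listed at 0 in the transgenic library and had 1.09 FPKM in control. In the transgenic over knockout 10 of 20 were above 0 (median -0.02). By the rule 1 gene, cart3, was higher there, beside 2.86% of all genes. Cart3, of the family of appetite peptides named CART, had 11.6 FPKM in the transgenic, 4.45 FPKM in the knockout and 9.59 FPKM in the control library.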
